A study of Mus musculus with 4 samples.

Results

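The genes described here encode the subunits of the mitochondrial respiratory chain and ATP synthase, measured in induced hepatocyte-like (iHep) cells grown in 2D or 3D culture. They were chosen by gene name alone: all noncontrol probes annotated as Nduf, Sdh, Uqcr, Cyc1, Cox4 to Cox8 or Atp5 genes were taken, which gave 115 of 41174 probes and 83 genes. Of these, 79 genes were tested, and all 79 had a probe well above background on all 4 arrays. Subunits of complexes I to V made up 75 of them: 34 in complex I, 4 in complex II, 8 in complex III, 14 in complex IV and 15 in complex V. The other 4 share the naming pattern without being subunits. They are Cox7a2l, a factor that joins complexes III and IV into supercomplexes, and Atp5s, Atp5sl and Cox4nb (now Dmac2l, Dmac2 and Emc8). The 4 genes not tested, Cox4i2, Cox7b2, Cox8b and Cox8c, are tissue isoforms of complex IV subunits whose probes were not well above background on any array.

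All cells were iHep cells of C57BL/6 origin, which the labels describe as derived from MDFs, an abbreviation they leave unexplained. According to the design text the cells were made in separate experiments named iHep-1 and iHep-2. Each of the 2 supplied 1 array of 2D and 1 array of 3D culture, so each culture had n = 2. The comparison asks how 3D culture changes expression relative to 2D. A plus sign follows the experiment's name in the titles of the 2D samples only, and what it marks, which the labels do not say, cannot be told apart from culture.

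The respiratory chain passes electrons from NADH (complex I) and succinate (complex II) through coenzyme Q to complex III, and from there through cytochrome c to complex IV, which reduces oxygen. Complexes I, III and IV pump protons across the inner mitochondrial membrane, and ATP synthase (complex V) makes ATP from their return flow. Most subunits are encoded in the nucleus, and hepatocytes are rich in mitochondria that feed urea synthesis, gluconeogenesis and fatty acid oxidation.

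The 75th percentile of the processed signal ranged from 399 to 616 intensity units over the 4 arrays, and 23061 to 24413 probes were well above background. All values below are log2 of the processed signal minus the array's 75th percentile, so a value of 0 is the 75th percentile itself, and differences are 3D minus 2D unless stated. Levels of different genes come from different probes and were not compared. Of 10 hepatocyte markers, 9 were matched on the array, and all 9 were well above background on all 4 arrays. Their summed level, in multiples of the 75th percentile, was 1920 in 2D and 1720 in 3D for iHep-1, and 1410 and 2830 in iHep-2. Most of this sum came from Alb, Fgb and Trf, which were lower in 3D in iHep-1 and higher in iHep-2. In iHep-1 Ttr and Hnf4a were also lower, while Apoa1, Apob, Cps1 and Tat were higher. Fibroblast markers were well above background for 4 to 7 of 9 genes, with summed levels of 17.8 and 34.5 in iHep-1 and 63.2 and 22.9 in iHep-2. Most of the fibroblast sum came from Vim, which differed by 1.11 and -1.96. Pdgfra differed by 0.65 and 0.65 and Pdgfrb by -1.08 and -3.33, so the list had no common direction. All 5 biliary markers were well above background, at 16.1 and 25.3 in iHep-1 and 46.8 and 30.1 in iHep-2. The part of these markers in the results was not tested. In such bulk RNA, fewer cells of a type and less RNA per cell cannot be told apart.

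Subunit genes differed little between the cultures, and most of the small differences had the same direction in both experiments. The median difference of the 79 genes was 0.11 in iHep-1 and 0.39 in iHep-2, and that of the mean of both was 0.23, a fold of 1.18. Over all 16452 genes tested, the corresponding medians were -0.02, 0.04 and 0.02. In both experiments 55 of 79 members (69.6%) were higher in 3D, against 33.2% of all genes, and 8 (10.1%) were lower in both, against 33.0%. The other 16 members (20.3%; 33.8% of all genes were opposite in either order) all were lower in 3D in iHep-1 and higher in iHep-2, a pattern shown by 19.2% of all genes. Both 3D arrays lay above both 2D arrays for 33 members (41.8%; 19.8% of all genes) and below them for 5 (6.33%; 21.5%).

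None of these differences passed the test. With limma and Benjamini-Hochberg adjustment over all genes, 0 members were called higher (0.0% of all genes) and 0 lower (0.0%). The smallest adjusted p of a member was 0.684, and that of any gene 0.496. At an unadjusted p under 0.05 limma had 2 members, Cox7a1 and Cox6a2, which is 2.53% of members against 7.03% of all genes. When limma's fit took the experiment as a block, the smallest adjusted p among members was 0.254, and again none was called.

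Most differences were also small. The difference stayed under 2-fold in both experiments for 76 of 79 members (96.2%), against 74.4% of all genes. The standard deviation over members was 0.299 in iHep-1 and 0.417 in iHep-2, against 0.835 and 1.2 over all genes. The 2 sets are unlike in detection: all 79 members were well above background on all 4 arrays, against 14586 of the 16452 genes. The part of signal level in these contrasts was not tested. Only Cox7a1 was at least 2-fold higher in both experiments (4.25% of all genes were), and no member was at least 2-fold lower in both (2.13% were).

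**Figure D1:**
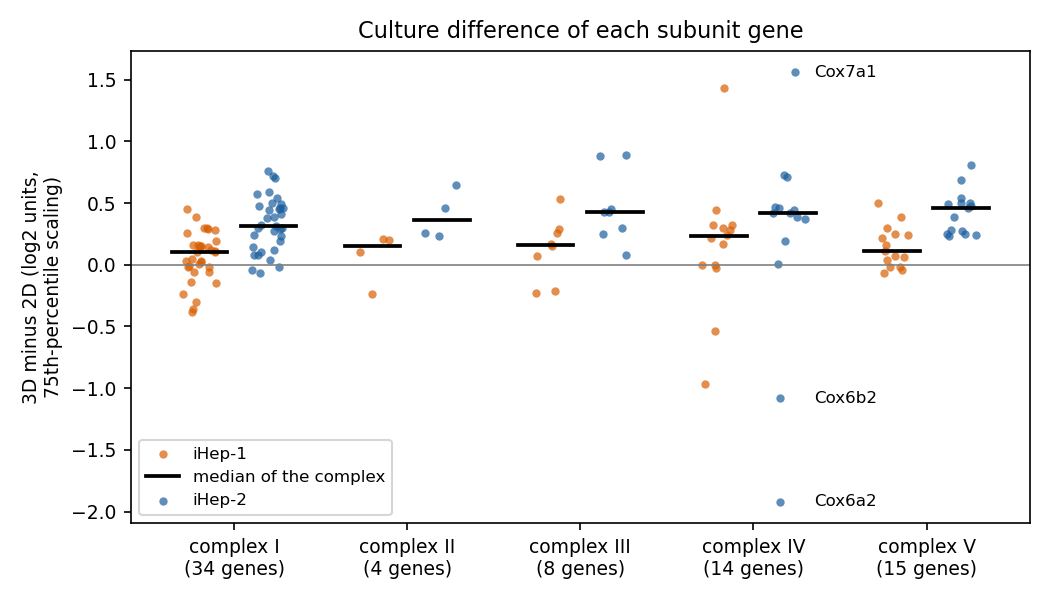
Each point is the 3D minus 2D difference of 1 subunit gene in log2 units after 75th-percentile scaling, in iHep-1 (orange) and iHep-2 (blue), by complex; black bars are medians. The 5 medians lie between 0.10 and 0.23 in iHep-1 and between 0.31 and 0.46 in iHep-2, and 3 labelled isoform genes of complex IV lie outside the other points.

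Complex I, which oxidises NADH, had the smallest median of the 5 complexes: 0.10 in iHep-1, 0.31 in iHep-2 and 0.20 for the mean. Higher in 3D in both experiments were 23 of its 34 genes (67.6%; 33.2% of all genes). Lower in both were 3 (8.82%; 33.0%), and 8 were opposite (23.5%; 33.8%). Its 7 core subunits measured here, which belong to the catalytic part of the complex, had medians of 0.15 and 0.30. Of them, 6 were higher in both experiments, among them Ndufs1 (0.10 and 0.30), Ndufs3 (0.15 and 0.32) and Ndufv1 (0.30 and 0.48), and Ndufv2 was opposite (-0.02 and 0.12). The 27 accessory subunits had medians of 0.05 and 0.38, with 17 higher in both.

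Ndufb4, an accessory subunit of the membrane arm, had the largest mean difference of the complex. Its values were 5.51 and 5.96 in iHep-1 and 5.08 and 5.78 in iHep-2, a difference of 0.58 ± 0.27 (SE, n = 2 per culture; limma adjusted p = 0.696), and both 3D arrays were above both 2D arrays. The same separation was seen for Ndufa3, Ndufa5, Ndufa8, Ndufa9, Ndufa10, Ndufa11, Ndufb2, Ndufb8 and Ndufc2, with mean differences from 0.19 to 0.44. Such separation was seen in 32.4% of complex I, against 19.8% of all genes.

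Ndufs4, Ndufb5 and Ndufa7 were lower in 3D in both experiments. Ndufs4, an accessory subunit whose loss in mice gives a Leigh-like disease, read 4.51 in 2D and 4.13 in 3D for iHep-1, and 4.20 and 4.16 in iHep-2. Its groups did not overlap, but the mean difference of -0.21 was smaller than its SE of 0.24 (limma adjusted p = 0.829). Ndufb5, of the membrane arm, read 2.31 and 2.00 in iHep-1 and 1.75 and 1.73 in iHep-2, so its groups overlapped. Ndufa7 differed by -0.24 and -0.07, with both 3D arrays below both 2D arrays. The 8 genes of complex I with opposite directions were Ndufa13, Ndufb6, Ndufb7, Ndufb10, Ndufb11, Ndufs5, Ndufs6 and Ndufv2. Ndufa13 had the widest split of these, -0.36 in iHep-1 and 0.38 in iHep-2. The remaining accessory genes, Ndufa1, Ndufa2, Ndufa6, Ndufa12, Ndufb3, Ndufb9 and Ndufc1, were higher in both experiments with overlapping arrays.

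Complex II, succinate dehydrogenase, also belongs to the tricarboxylic acid (TCA) cycle and is encoded entirely in the nucleus. Its 4 genes had a median of 0.15 in iHep-1 and 0.36 in iHep-2. Sdha, the flavoprotein that oxidises succinate, read 2.18 in 2D and 2.40 in 3D for iHep-1, and 1.78 and 2.43 in iHep-2. Its 3D arrays lay above the 2D arrays (0.43 ± 0.26, n = 2 per culture; limma adjusted p = 0.723). Sdhb, the iron-sulfur subunit, read 3.91 and 4.12 in iHep-1 and 3.36 and 3.59 in iHep-2. Its 2 differences were close, 0.20 and 0.23, but the 2D array of iHep-1 was above the 3D array of iHep-2.

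The membrane anchors Sdhc and Sdhd hold the complex in the membrane and bind coenzyme Q. Sdhc read 3.82 in 2D and 3.92 in 3D for iHep-1, and 3.39 and 3.86 in iHep-2, so 3D was above 2D by a narrow margin. Sdhd read 5.71 and 5.47 in iHep-1 and 5.10 and 5.36 in iHep-2, and was the only gene of the complex with opposite directions (-0.24 and 0.26).

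Complex III passes electrons from coenzyme Q to cytochrome c. Its 8 genes had medians of 0.16 in iHep-1 and 0.43 in iHep-2. Higher in both experiments were 6 of them, and none was lower in both. Uqcr (now Uqcr11), a small accessory subunit, had the largest mean difference among the members that are not tissue isoforms. It read 6.32 in 2D and 6.85 in 3D for iHep-1, and 5.67 and 6.55 in iHep-2, a difference of 0.71 ± 0.34 (limma adjusted p = 0.699). Uqcrb, which helps to form the quinone-binding part, read 4.36 and 4.62 in iHep-1 and 3.85 and 4.74 in iHep-2. Both genes had 3D above 2D without overlap, as did the core protein gene Uqcrc1 (0.29 and 0.25). This makes 37.5% of the complex, against 19.8% of all genes.

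The other genes of the complex, among them the catalytic subunits Cyc1 and Uqcrfs1, had overlapping arrays. Cyc1 (cytochrome c1) differed by 0.15 and 0.08 and Uqcrfs1 (the Rieske iron-sulfur protein) by 0.07 and 0.43, while the core protein gene Uqcrc2 differed by 0.17 and 0.45. Uqcrh, the hinge protein near cytochrome c1, read 7.53 in 2D and 7.32 in 3D for iHep-1, and 6.73 and 7.02 in iHep-2. Uqcrq, another small subunit, read 7.54 and 7.32 in iHep-1 and 7.44 and 7.88 in iHep-2. Both had opposite directions in the experiments. A second Uqcrq probe, annotated to a cDNA clone, differed by -1.16 in iHep-1 and 0.01 in iHep-2, the widest disagreement between probes of 1 member (0.68 for the mean).

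Complex IV, cytochrome c oxidase, had the highest median in iHep-1 (0.23) and the widest spread, with a standard deviation of 0.53 in iHep-1. Several of its subunits exist in isoforms made in particular tissues. The 11 tested genes that are not tissue isoforms had a standard deviation of 0.155 in iHep-1 and medians of 0.24 and 0.42. Of them, 10 were higher in 3D in both experiments (90.9%; 33.2% of all genes). These were Cox4i1, Cox5a, Cox5b, Cox6b1, Cox6c, Cox7a2, Cox7b, Cox7c, Cox8a and Ndufa4, the last a subunit first assigned to complex I. Cox5a was nearly level, with 0.00 and 0.01. Cox7b read 4.67 in 2D and 4.99 in 3D for iHep-1, and 4.05 and 4.78 in iHep-2, without overlap (0.52 ± 0.32; limma adjusted p = 0.723). Cox4i1, Cox6b1, Cox6c, Cox7c, Cox8a and Ndufa4 had the same order of arrays. This order was seen in 63.6% of the 11 genes, against 19.8% of all genes. Cox4i1 was level in iHep-1 at the precision shown (7.29 in 2D and 7.29 in 3D) and differed by 0.42 in iHep-2. Ndufa4 differed by 0.32 and 0.71 (limma adjusted p = 0.685).

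The 3 tissue isoforms that were measured had the largest mean differences over both experiments of all members, and their probes are shown because isoforms of 1 subunit can share sequence. The first 30 bases of each 60-base probe, as the files give them, are as follows, in lower case throughout since no position is singled out.
Cox7a1: acaacgtcctgtacagactgaccatgacgc
Cox7a2: aactgagctcttctttggggatcaatattt
Cox6a2: agcaatcttcaaattggccttctgcacacc
Cox6a1: ggaccacgaaaaccctttggatgctaagct
Cox6b2: ggaactttcccgggcaaaatatgaccttgc
Cox6b1: aggagtcaggatggctgaagacatcaagac
In build mm9 the files place the Cox7a1 probe at chr7:30970337-30970948 on the plus strand, a span longer than the probe, as when it crosses an intron. The Cox7a2 probe lies at chr9:79603227-79603286, that of Cox6a2 at chr7:135349160-135349219 and that of Cox6a1 at chr5:115795726-115795785, all on the minus strand. The Cox6b2 probe lies at chr7:4703488-4703547 and that of Cox6b1 at chr7:31409575-31411071, both on the minus strand. The longest run of bases shared by the 60-base probes of a pair was 6 for Cox7a1 with Cox7a2, 4 for Cox6a2 with Cox6a1 and 6 for Cox6b2 with Cox6b1. Exon and UTR annotation for this build was not used here.

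Cox7a1 encodes the isoform of subunit VIIa that is typical of heart, skeletal muscle and brown fat. It read -0.29 in 2D and 1.14 in 3D for iHep-1, and -0.14 and 1.43 in iHep-2. Both 3D arrays were far above both 2D arrays, and the arrays of 1 culture lay within 0.29 of each other. The differences were 1.43 and 1.56, with a mean of 1.50 ± 0.24 (2.82-fold, n = 2 per culture), and limma's adjusted p was 0.684. The widely made isoform of the same subunit, Cox7a2, read 5.20 and 5.64 in iHep-1 and 4.65 and 5.11 in iHep-2, differences of 0.44 and 0.47. The ratio of Cox7a1 to Cox7a2 signal was therefore 1.98-fold higher in 3D in iHep-1 and 2.14-fold higher in iHep-2. A constant shift of an array leaves this ratio as it is, but quantile normalization and normexp background correction act by intensity and can change it. With normexp the mean difference of Cox7a1 was 1.38. The ratio shows that the pair differed unequally between cultures.

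Cox6a2, the heart and muscle isoform of subunit VIa, went the other way. It read -2.47 in 2D and -3.45 in 3D for iHep-1, and -1.30 and -3.21 in iHep-2. Both 3D arrays were below both 2D arrays, by 0.97 to 1.92 within an experiment, and the mean difference was -1.45 ± 0.49 (limma adjusted p = 0.684). It was -0.86 with normexp background correction and also -0.86 without 2D replicate 2, and -2.03 without 2D replicate 1. Cox6a1, the widely made isoform, read 8.65 and 8.61 in iHep-1 and 8.19 and 8.65 in iHep-2, with opposite directions. The ratio of Cox6a2 to Cox6a1 was 1.92-fold lower in 3D in iHep-1 and 5.19-fold lower in iHep-2. Before scaling, the Cox6a2 signal was low, at 94.2 and 54.5 intensity units in iHep-1 and 251 and 43.0 in iHep-2. The ratio was computed with the main processing only.

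Cox6b2, the testis isoform of subunit VIb, read -1.47 in 2D and -2.01 in 3D for iHep-1, and -0.90 and -1.99 in iHep-2. Its 3D arrays were below its 2D arrays, with a mean difference of -0.81 ± 0.29 (limma adjusted p = 0.684). With normexp background correction it was -0.58, and without 2D replicate 2 it was -0.53. Cox6b1, the widely made isoform, read 1.58 and 1.88 in iHep-1 and 1.20 and 1.62 in iHep-2, so it was higher in 3D on both arrays. The ratio of Cox6b2 to Cox6b1 was 1.79-fold lower in 3D in iHep-1 and 2.83-fold lower in iHep-2, with the main processing only. Before scaling, the Cox6b2 signal was also low, at 189 and 148 intensity units in iHep-1 and 330 and 101 in iHep-2.

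**Figure D2:**
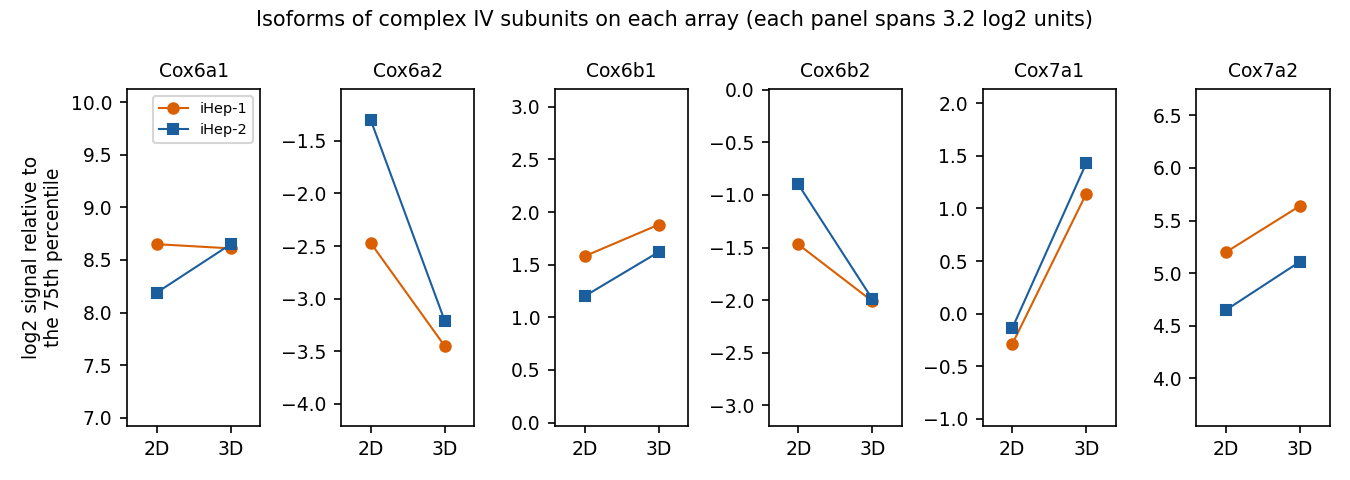
Each panel shows 1 gene of complex IV, with its log2 signal relative to the array's 75th percentile in 2D and 3D; lines join the arrays of iHep-1 (orange circles) and iHep-2 (blue squares), and all panels span the same number of log2 units around different centres. Cox7a1 is higher in 3D by 1.43 and 1.56, Cox6a2 is lower by 0.97 and 1.92, and the isoforms Cox6a1, Cox6b1 and Cox7a2 stay within 0.47.

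Markers of the tissues these isoforms are known from were read beside them. Of 10 striated muscle markers, 4 were tested, and Ckm, Mb, Actn2 and Des were not well above background on any array. The summed level of the 10 markers was 6.52 in 2D and 4.47 in 3D for iHep-1, and 17.8 and 8.69 in iHep-2, and lower in 3D in both experiments. Nearly all of this sum is Myh7, a slow muscle myosin, which differed by -0.56 and -1.06. Of the other tested markers, Tnnt1 differed by -0.19 and -0.76, Myh4 by 1.33 and -0.47 and Tnnt3 by -1.92 and 1.62, so the list had no common direction. Of 4 brown fat markers, Ucp1 and Elovl3 were not well above background, and Cidea differed by 0.81 and 3.84. The sum of the 4 was 0.158 and 0.243 in iHep-1 and 0.118 and 1.33 in iHep-2. Of 4 male germ cell markers, Ldhc and Cyct were not well above background on any array, while Prm1 and Tnp1 were on all 4. Prm1 differed by -0.20 and 0.35 and Tnp1 by -0.32 and 0.65. The sum of the 4 was 0.307 and 0.262 in iHep-1 and 0.209 and 0.288 in iHep-2. The part of these cells in the isoform values was not tested.

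Complex V, ATP synthase, had medians of 0.11 in iHep-1 and 0.46 in iHep-2. Its 15 genes were the most even of the larger complexes taken whole, with standard deviations of 0.168 and 0.177. Complex IV without its tissue isoforms had 0.155 and 0.202, so it was the more even in iHep-1. Higher in both experiments were 11 (73.3%; 33.2% of all genes), none was lower in both (33.0%), and 4 were opposite (26.7%; 33.8%). Both 3D arrays lay above both 2D arrays for Atp5d, Atp5f1, Atp5g1, Atp5g2, Atp5h, Atp5j2, Atp5k and Atp5l (53.3% of the complex; 19.8% of all genes).

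By role, the 5 genes of the catalytic F1 part (Atp5a1, Atp5b, Atp5c1, Atp5d and Atp5e) had medians of 0.06 and 0.46. The 3 genes of the proton-carrying c ring (Atp5g1, Atp5g2 and Atp5g3), which encode the same mature subunit, had medians of 0.22 and 0.49. The 4 genes of the peripheral stalk (Atp5f1, Atp5h, Atp5j and Atp5o) had medians of 0.08 and 0.37, and the 3 of the membrane part (Atp5j2, Atp5k and Atp5l) 0.25 and 0.39. Each of these groups had the smaller median in iHep-1.

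Atp5g1 had the largest mean difference of the complex. It read 4.42 in 2D and 4.92 in 3D for iHep-1, and 4.12 and 4.82 in iHep-2 (0.60 ± 0.24; limma adjusted p = 0.684). Atp5g2 differed by 0.22 and 0.28, and Atp5g3 by -0.07 and 0.49, so the c-ring genes were unequal. Atp5k, the subunit e that takes part in joining synthase dimers, read 3.74 and 3.98 in iHep-1 and 2.97 and 3.79 in iHep-2. At the other end, Atp5o, the stalk subunit that contacts F1, read 6.03 and 6.00 in iHep-1 and 5.67 and 5.90 in iHep-2. Atp5c1, the rotating central shaft, read 7.15 and 7.12 in iHep-1 and 6.83 and 7.06 in iHep-2. Both were level in iHep-1 and slightly higher in 3D in iHep-2. Atp5e was level in iHep-1 too (-0.02), but higher by 0.54 in iHep-2.

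Among the 4 genes that only share the name pattern, 3 were lower in 3D in both experiments (33.0% of all genes were). Cox7a2l read 3.61 in 2D and 3.05 in 3D for iHep-1, and 3.60 and 3.10 in iHep-2. Its 2D arrays agreed within 0.01 and its 3D arrays within 0.05, and the mean difference was -0.53 ± 0.21 (1.44-fold lower; limma adjusted p = 0.684). Atp5s differed by -0.50 and -0.14 and Cox4nb, a subunit of a membrane protein insertion complex of the endoplasmic reticulum, by -0.11 and -0.43, both with overlapping arrays. Atp5sl differed by 0.31 and 0.37, with 3D above 2D.

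**Figure D3:**
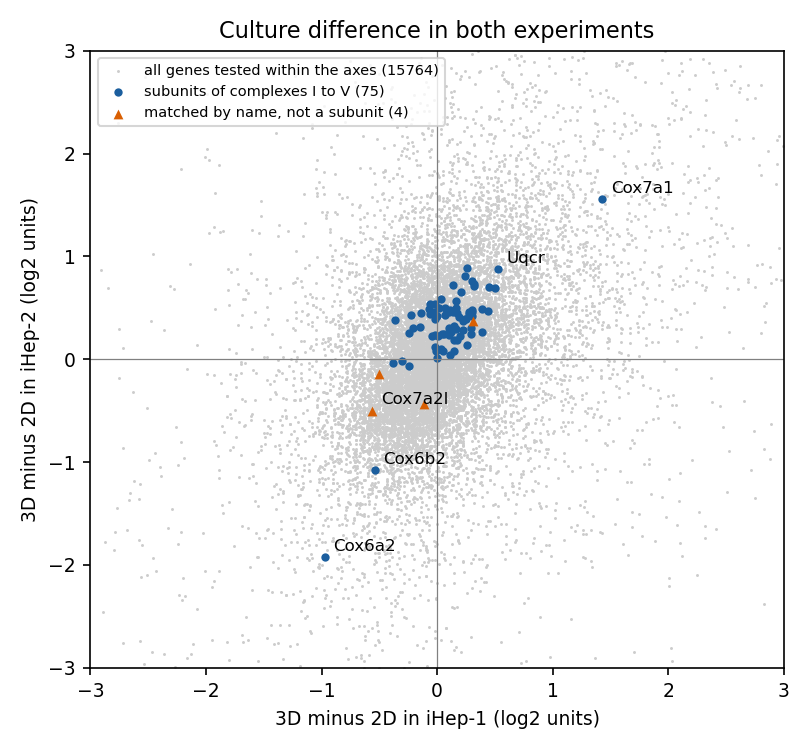
The 3D minus 2D difference in iHep-1 (horizontal axis) is plotted against that in iHep-2 (vertical axis), in log2 units, for all genes tested within the axes (grey), the 75 subunit genes (blue) and the 4 others (orange triangles). The subunit genes form a compact cloud centred right of and above the origin, around medians of 0.12 and 0.39, with Cox7a1, Cox6b2 and Cox6a2 apart from it. Of the 75, 16 were lower in 3D in iHep-1 only and 5 in both experiments, so they lie left of the vertical zero line.

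Relative to the 75th percentile, the members also differed between the experiments, and more so in 2D than in 3D. The median of iHep-2 minus iHep-1 was -0.38 in 2D and -0.10 in 3D, against -0.05 and 0.00 over all genes. In 2D, 72 of 79 members (91.1%) were lower in iHep-2, against 53.8% of all genes, and in 3D 53 (67.1%) were, against 49.8%. Lower in iHep-2 in both cultures were 52 (65.8%; 33.6% of all genes), and higher in both were 6 (7.59%; 30.0%): Cox6a2, Cox6b2, Cox7a1, Ndufc2, Atp5s and Atp5sl. This direction depends on the scaling: the count lower in iHep-2 in both cultures was 1 with spike-in controls, 62 with quantile normalization and 71 in the authors' table. Both iHep-2 arrays lay below both iHep-1 arrays for 32 members (40.5%; 22.6%). None was at least 2-fold lower in both cultures (5.75% of all genes were) or at least 2-fold higher (5.12%).

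Cox5b, which binds zinc in complex IV, had the widest gap between experiments in this direction, reading 7.39 and 7.61 in iHep-1 and 6.36 and 6.73 in iHep-2. Its gap of -1.03 in 2D and -0.88 in 3D was larger than its culture differences of 0.22 and 0.37. Atp5a1, the catalytic alpha subunit, was lower in iHep-2 by 0.88 in 2D and by 0.46 in 3D on the log2 scale. Per complex, the 2D medians were -0.41, -0.49, -0.49, -0.37 and -0.32 for complexes I to V, and the 3D medians were -0.09, -0.09, -0.21, -0.18 and -0.10. With 1 array per culture and experiment, this contrast has no replicate within an experiment, and no test of it was made. It shares its arrays with the culture comparison: the gap being deeper in 2D than in 3D, as in 71 members (89.9%; 52.4% of all genes), is the same measurement as a larger culture difference in iHep-2. That larger difference depended on the scaling. With quantile normalization the members' median culture difference was 0.19 in iHep-1 and 0.17 in iHep-2.

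**Figure D4:**
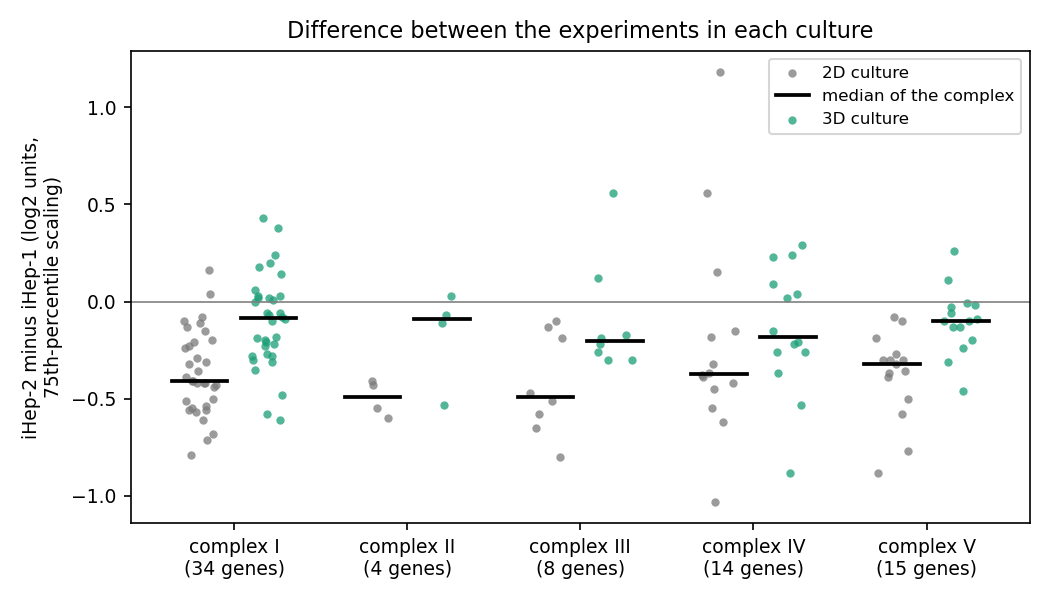
Each point is the iHep-2 minus iHep-1 difference of 1 subunit gene in log2 units after 75th-percentile scaling, in 2D (grey) and 3D (green), by complex; black bars are medians. The medians lie between -0.49 and -0.32 in 2D and between -0.21 and -0.09 in 3D.

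The values of all members together depended on how the arrays were scaled, while a constant shift per array leaves the differences between genes as they are. Before scaling, the members' median difference was 0.30 in iHep-1 and -0.24 in iHep-2, with 68 and 11 of 79 genes higher in 3D, while the 75th percentile itself differed by 0.18 and -0.63. Scaled to the spike-in control probes, the median of all genes moved to -1.08 and that of the members to -0.87. On that scale 0 members were higher and 64 lower in 3D in both experiments, but the gap between members and all genes stayed 0.21. The spike-in signal itself differed by 1.85 between the iHep-1 arrays and by -0.10 between those of iHep-2. A higher value is therefore one relative to the rest of that array.

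The gap between the experiments depended on it too. With quantile normalization the members' medians were 0.19 in iHep-1 and 0.17 in iHep-2, and in the authors' series table they were 0.18 and 0.17. The members' count higher in both experiments was 56 and 55 under these settings. It was 54 with normexp background correction and 49 with the mean of a gene's probes in place of the brightest. Without a filter on dim probes, the median of all 27973 genes was 0.20 and the members lay 0.04 above it, while the members' own median remained 0.23.

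**Figure D5:**
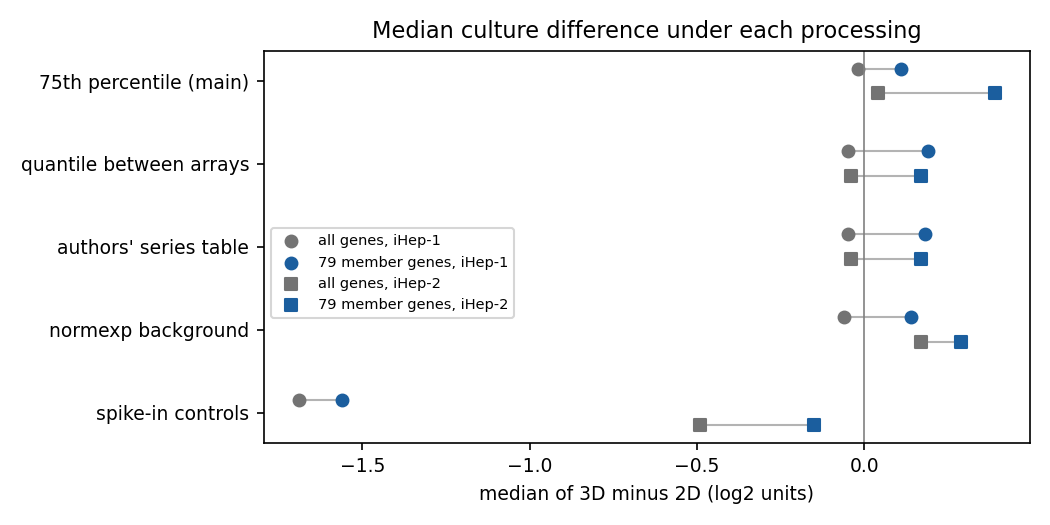
Median 3D minus 2D difference in log2 units of the 79 member genes (blue) and of all genes tested (grey) under 5 ways of processing, for iHep-1 (circles) and iHep-2 (squares). The members lie right of all genes in each row, by 0.12 to 0.34, while both move to negative values with the spike-in controls.

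Promoters of the members were read because nuclear respiratory genes are known targets of NRF1, of the ETS factor GABPA and of YY1. RefSeq promoters (GRCm38.p6, 250 bases before to 50 after the gene start) were matched for 67 of 83 members. The motif GCGCATGCG, a form of the NRF1 site, was found on either strand in 8 (11.9%), against 1.95% of all 27025 promoters and 3.70% of those of tested genes. The looser GCGCANGCG, which includes it, was in 20 (29.9%), against 7.03% and 14.0%. The ETS motif CCGGAAG was in 16 (23.9%), against 9.93% and 18.6%, and the YY1 motif AAGATGGCG in 8 (11.9%), against 1.64% and 3.25%.
The windows around the 8 matches to GCGCATGCG are shown 5′ to 3′ on the gene's strand, with the match in capitals, which reads as its reverse complement where it lies on the other strand.
Atp5g2: ggctccggccGCGCATGCGcagagccttc
Atp5k: tttcactgcgGCGCATGCGcctttctggc
Atp5l: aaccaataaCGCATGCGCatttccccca
Cox6a1: caggaacgggGCGCATGCGcgctctcgct
Ndufa11: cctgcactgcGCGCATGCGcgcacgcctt
Ndufa8: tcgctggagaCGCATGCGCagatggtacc
Uqcr11: atcgccttcaCGCATGCGCtatacgtctg
Uqcrc1: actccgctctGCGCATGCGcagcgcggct
These windows lie at chr15:102671071-102671099, chr5:108434431-108434459, chr9:44920965-44920992 and chr5:115349102-115349130 for the first 4 genes, all on the minus strand. Those of the next pair lie at chr17:56717692-56717720 on the plus and chr2:36049329-36049357 on the minus strand, and the last pair at chr10:80406808-80406836 on the minus and chr9:108936668-108936696 on the plus strand.

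At least 1 of the 3 motif kinds (GCGCANGCG, CCGGAAG, AAGATGGCG) was in 36 members (53.7%), against 16.5% of all promoters and 31.4% of those of tested genes. Both GCGCANGCG and CCGGAAG were in 6: Atp5h, Atp5k, Atp5l, Cox6a1, Sdhd and Uqcr11. The median culture difference of the 20 members with GCGCANGCG was 0.25 and that of the 45 tested members with a matched promoter without it 0.23. This difference was not tested, and tested members with no matched promoter are in neither group. The last 150 bases before the start are shown for the member with the largest mean difference (Cox7a1) and for Uqcr11 and Atp5k, which lead complex III and the membrane part of complex V. Capitals mark CCGGAAG in Uqcr11 and, in Atp5k, GCGCATGCG with its overlapping reverse complement.
Uqcr11: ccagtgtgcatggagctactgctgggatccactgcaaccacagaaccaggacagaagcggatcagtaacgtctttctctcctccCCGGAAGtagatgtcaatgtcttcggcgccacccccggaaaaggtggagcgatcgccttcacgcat
Atp5k: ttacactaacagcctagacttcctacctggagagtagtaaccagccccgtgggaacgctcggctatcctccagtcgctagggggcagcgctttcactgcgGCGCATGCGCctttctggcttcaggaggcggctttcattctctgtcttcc
Cox7a1: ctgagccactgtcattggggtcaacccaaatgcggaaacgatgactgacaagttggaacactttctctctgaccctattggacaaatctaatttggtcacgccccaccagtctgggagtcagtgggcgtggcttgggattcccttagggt
They lie at chr10:80406822-80406971 (minus strand), chr5:108434400-108434549 (minus) and chr7:30184021-30184170 (plus) in GRCm38.p6. The Cox7a1 window held 0 of the motifs, which says only that these letters are not in it. The NRF1 match of Uqcr11 runs across the start and so ends beyond the stretch shown.

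Other genes of the pathway were taken from lists chosen by function, and none of them passed limma's test (0.0% of all genes did). Their counts by direction stand against the 33.2% of all genes that were higher in 3D in both experiments and the 33.0% that were lower in both, and small departures from these shares are no trait of a list. Of 55 assembly factors tested for complexes I to V, which build the complexes without staying in them, 21 were higher in 3D in both experiments and 16 lower, both near those shares, and their medians were -0.03 in iHep-1 and 0.21 in iHep-2. Ndufaf1, a factor for complex I, differed by 0.69 and 0.70, and Cox19, which takes part in copper delivery to complex IV, by 0.22 and 1.22. Uqcc1, a factor for complex III, differed by -0.58 and -0.63 and Coa4 by -0.74 and -0.44. Probes named for 2 mitochondrially encoded subunits were on the array, and that of CYTB differed by -0.48 and 0.36. The probe named COX2 differed by -0.25 and 0.51, but the files place it on chromosome 1, so it may not measure the mitochondrial transcript.

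Genes for electron carriers and for other entry routes into the chain (18 tested) had medians of 0.09 and 0.45, with 10 higher and 2 lower in both experiments. Coq8a, needed for coenzyme Q synthesis, differed by 0.37 and 1.45 and Suox, sulfite oxidase, by 0.37 and 1.25, while Dhodh of pyrimidine synthesis differed by -0.42 and -0.62. The TCA cycle with pyruvate dehydrogenase (19 tested) had medians of 0.02 and 0.46, with 11 higher and 4 lower. Pdhx, a component of pyruvate dehydrogenase, differed by 0.59 and 1.11, and Idh2, the mitochondrial NADP-dependent isocitrate dehydrogenase, by -0.67 and -0.78.

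Regulators of mitochondrial gene expression (19 tested) split into 8 higher and 7 lower, with medians of 0.00 and 0.00. Ppara, a receptor that drives fatty acid oxidation, differed by 0.74 and 1.32 and the coactivator Ppargc1b by 1.02 and 0.50. Pprc1, a related coactivator, differed by 0.00 and -0.61 and Mterf3, a regulator of mitochondrial transcription, by -0.25 and -0.32. Mitochondrial ribosomal proteins (78 tested) had medians of 0.06 and 0.15, with 39 higher and 21 lower; Mrpl37 differed by 0.40 and 0.61 and Mrps6 by -0.93 and -0.94. Import genes (25 tested) had medians of -0.02 and -0.06, with 7 higher and 11 lower. The import receptor Tomm20 differed by -0.68 and -0.62 and the chaperone Hspa9 by -0.45 and -0.73. Of 8 carriers and channels tested, 2 were higher and 2 lower: the ADP/ATP carriers Slc25a4 and Slc25a5, which exchange the product of complex V, differed by -0.55 and -0.63 and by 0.05 and 0.64.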

How the data were processed

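Total RNA of 4 samples was labelled with Cy3 and hybridised to 1-colour Agilent arrays, per the labels' protocols. The authors deposited linear intensity values from Agilent Feature Extraction (version 9.5.1.1 per the submitters' processing notes, 10.7.1.1 per the file headers), with probe positions in mm9 per the file headers, and a series table of intensity values of the same arrays. All 4 arrays lay on 1 slide with 1 scan time per the file headers.

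Log2 of the deposited processed signal minus the array's 75th percentile was used. Outlier-flagged spots (72 to 85 per array) were left out; none was saturated. Probes well above background on at least 2 arrays were kept, and the brightest probe represented a gene. Names came from RefSeq by accession (24844 probes), by symbol (7855), or stayed as in the files (8475). A probe naming Sdha only by accession was kept apart.

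The cultures were tested with limma (version 3.58.1, under R 4.3.3; two-sided, lmFit and eBayes, Benjamini-Hochberg over 16452 genes, threshold 0.05, 2 residual degrees of freedom), checked on simulated data. Only 4 arrays limit the precision. Replicate numbers mark the experiment per the design text and so pair the arrays. The SE and adjusted p given for single genes come from the fit without this pairing. Deviations of same-numbered arrays correlated at 0.661 across genes. Alternatives were quantile and spike-in scaling (6 control probes), normexp (offset 50), the authors' table, other filters, the mean of a gene's probes, the block and leaving out arrays. Members and lists were chosen with earlier results of these data known. A gene that the rule takes is not reported here. Genes given array by array are, per complex, the 2 largest mean differences each way and the isoform pairs; Cox7a2l and Cox5b and those given by differences alone were chosen after their values were seen, except the 2 largest each way of the other lists.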

Additional observations from a re-analysis of the deposited data

How the results depend on the processing

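No member was called by limma under any alternative, and 0 genes were called in all except 2: 292 with spike-in scaling and 19 with the replicate block, an intensity trend and a robust prior. The replicate block alone gave 0 called genes and 0 called members, as without the pairing, and changed no other call. Spike-in scaling gave 0 members higher and 64 lower in 3D in both experiments, 0 at least 2-fold higher and 3 at least 2-fold lower, and 1 lower and 2 higher in iHep-2 in both cultures. Its medians were -0.87 for all members and -0.90, -0.85, -0.84, -0.80 and -0.82 for complexes I to V, and 18 of the 24 genes that the rule for named genes takes changed sign. Quantile normalization and the authors' table each gave 1 member at least 2-fold lower. Leaving out each array in turn, the median ranged from 0.04 to 0.41 for all members, from 0.01 to 0.39 for complex I, 0.00 to 0.49 for II, 0.06 to 0.49 for III, 0.11 to 0.52 for IV and 0.11 to 0.45 for V, lowest without 2D replicate 2 and highest without 2D replicate 1. Counts over both experiments need all 4 arrays and were not run without one.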

Other observations

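Among the 115 member probes, 10 are annotated to cDNA clones. Of these 10, 5 were well above background on all 4 arrays, 1 on 1 array and 4 on none, against 101 of the other 105 on all 4. None of the 10 represented its gene. All 5 that were measured were lower in 3D in iHep-1, and in iHep-2 those of Ndufb2, Ndufb8, Atp5j2 and Uqcrq were higher, as were those genes' other probes. For Ndufb8 the clone probe differed by -0.37 and 0.17 where the other probe differed by 0.29 and 0.30, and for Ndufb2 by -0.45 and 0.19 against 0.16 and 0.57. For Ndufc1 the clone probe differed by -0.18 and -0.46, against 0.01 and 0.23 and 0.11 and 0.21 for its other probes. For Atp5j2 the clone probe differed by -0.20 and 0.49 against 0.25 and 0.39, and for Uqcrq by -1.16 and 0.01 against -0.23 and 0.43. Of 23 members with several kept probes, 8 had probes of opposite sign, with a median range of 0.09 between probes of 1 gene.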
